A study of Mus musculus with 4 samples.

Results

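Cycling endothelial cells were examined in 4 single-cell RNA-sequencing libraries of mouse tibial fracture callus, a method that counts the captured mRNA molecules of each cell as unique molecular identifiers (UMIs). A cell was taken as a cycling endothelial cell when it held at least 2 UMIs of *Pecam1*, at least 1 of *Cdh5*, at least 2 of *Mki67*, at least 1 of *Top2a* and none of *Ptprc*. *Pecam1* and *Cdh5* encode junction proteins of endothelium, *Mki67* and *Top2a* encode nuclear proteins of dividing cells, and *Ptprc* encodes the leukocyte antigen CD45. Among 25479 cells with 4000 to 50000 UMIs, 2000 to 7000 genes and at most 8% mitochondrial UMIs, 3247 passed the endothelial part of this rule and 200 passed all of it. The 200 cells, 6.16% of the endothelial cells, came from control_4d (52 cells), control_7d (69 cells), RA_4d (49 cells) and RA_7d (30 cells). They were compared with 2403 non-cycling endothelial cells, which passed the same gate without a UMI of *Mki67* or *Top2a* (405, 675, 317 and 1006 cells in the same order). The absence of *Ptprc* was asked of both classes, whereas 2637 cells were non-cycling when it was not asked. A further 644 endothelial cells belonged to neither class.

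All mice were C57BL/6J wild-type males, 3 months old. RA mice received repeated injections of K/BxN serum, which transfers arthritis, and control mice received vehicle. Callus scraped along the periosteal surface was collected at 4 or 7 days post fracture (dpf) and pooled (n = 3 per the methods of the study, n = 4 per the design text of the series), and 10000 cells of each pool were loaded. Each condition therefore had 1 library, no test between conditions was made, and library batch and condition cannot be told apart.

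Endothelial cells of a resting vessel rarely divide. In a growing vessel, tip cells lead a sprout, and the cells behind them divide under the control of VEGF and Notch signals. Genes for DNA synthesis are switched on largely through E2F sites in their promoters, and genes for mitosis largely through the cell cycle genes homology region (CHR) together with CCAAT boxes.

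Because the genes of these programmes moved together in the cycling cells, promoter windows were taken from RefSeq (build GRCm38.p6), which held 41 of the 49 genes of a mitosis list and 27 of the 33 genes of a DNA replication list. Within the 250 bases before the start, searched on both strands, a CHR (TTTGAA or TTCGAA) stood in 15 of the 41 mitosis genes (36.6%), 5 of the 27 replication genes (18.5%) and 19.6% of all 27025 genes of the table. CCAAT stood in 30 mitosis genes (73.2%), 16 replication genes (59.3%) and 37.5% of all genes. An E2F-type word (TTTCGCGC, TTTGGCGC, TTTCCCGC or TTTGGCGG) stood in 2 mitosis genes (4.88%), 9 replication genes (33.3%) and 2.26% of all genes. These are matches of letters, not sites shown to be bound. Shown first are the 3 mitosis genes of largest fold change among those with a CHR and a CCAAT box in the last 150 bases. These motifs or their reverse complements are in capitals. Only genes with a single promoter window were ranked, and those of a chromosome left out of the choice were not. *Ckap2l* encodes a spindle protein (chr2:129297213-129297362, minus strand), *Ube2c* the ubiquitin-conjugating enzyme of the anaphase-promoting complex (chr2:164769779-164769928, plus strand) and *Kif11* the motor that separates the spindle poles (chr19:37376232-37376381, plus strand). Their CHR began 30, 29 and 19 bases before the start, respectively.
Ckap2l: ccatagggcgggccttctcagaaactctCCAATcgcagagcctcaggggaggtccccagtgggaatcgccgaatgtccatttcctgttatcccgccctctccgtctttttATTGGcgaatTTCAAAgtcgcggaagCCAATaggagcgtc
Ube2c: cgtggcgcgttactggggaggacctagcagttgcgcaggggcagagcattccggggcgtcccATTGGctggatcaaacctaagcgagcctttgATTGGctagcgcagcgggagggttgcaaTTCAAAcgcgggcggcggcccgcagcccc
Kif11: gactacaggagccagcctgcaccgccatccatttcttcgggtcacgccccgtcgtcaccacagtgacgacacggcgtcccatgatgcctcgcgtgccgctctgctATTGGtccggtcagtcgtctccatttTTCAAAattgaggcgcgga

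The 3 replication genes with the largest fold change among those with an E2F-type word in the same window, ranked under the same limits, are shown next. All the motifs searched are in capitals in all 6 sequences, and *Clspn* and *Mcm5* hold CCAAT boxes beside the E2F-type word. *Clspn* encodes claspin of the replication checkpoint (chr4:126556830-126556979, plus strand), *Mcm5* a subunit of the replicative helicase (chr8:75109359-75109508, plus strand) and *Hells* a chromatin remodeller (chr19:38930840-38930989, plus strand). None of the motifs printed here overlapped another (0 overlaps).
Clspn: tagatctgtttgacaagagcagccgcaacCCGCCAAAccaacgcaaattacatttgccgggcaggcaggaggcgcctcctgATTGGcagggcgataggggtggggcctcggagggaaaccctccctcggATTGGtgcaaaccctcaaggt
Mcm5: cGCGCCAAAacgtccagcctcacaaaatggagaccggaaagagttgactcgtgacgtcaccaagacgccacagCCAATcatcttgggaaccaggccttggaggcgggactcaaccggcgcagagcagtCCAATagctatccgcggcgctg
Hells: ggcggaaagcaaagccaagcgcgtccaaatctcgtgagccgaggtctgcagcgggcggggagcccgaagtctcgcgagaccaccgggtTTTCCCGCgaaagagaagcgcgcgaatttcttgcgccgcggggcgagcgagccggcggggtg

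The cycling cells were deep. In the order control_4d, control_7d, RA_4d and RA_7d, their median was 35136, 25002, 30811 and 23472 UMIs, against 17785, 13026, 18438 and 13394 UMIs in the non-cycling cells. A threshold on raw UMIs keeps deep cells more readily than shallow ones, so levels below are given as CPM, the UMIs of a gene after scaling the summed UMIs of a class in a library to 1000000. Just inside the rule were 27 cells with 2 *Mki67* UMIs and 29 cells with 1 *Top2a* UMI. Just outside it were 69 cells with a *Top2a* UMI but only 1 *Mki67* UMI, and 87 with at least 2 *Mki67* UMIs but no *Top2a* UMI. The endothelial limits were less close, with 2 members at 1 *Cdh5* UMI and 1 member at 2 *Pecam1* UMIs. Outside them, 59 otherwise cycling cells lacked a *Cdh5* UMI and 4 had 1 *Pecam1* UMI. A further 35 cells met every other limit and held a *Ptprc* UMI. The libraries shared 10 to 31 barcodes per pair, at most 0.424% of the smaller library, and no member barcode recurred as a member of another library (0 shared). Scrublet called 3 of the 200 cycling cells doublets (1.5%), against 3.16% of the non-cycling cells and 2.39% of all kept cells.

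The endothelial label held. *Kdr*, which encodes the main VEGF receptor and took no part in the rule, stood at 314, 285, 226 and 309 CPM in the same order of libraries, against 244, 273, 277 and 244 CPM in non-cycling cells. These ranges overlapped, and the difference did not pass the test (log2 fold change 0.13 ± 0.12 (SE), adjusted p = 0.439). A *Kdr* UMI was found in 51 of 52, 65 of 69, 47 of 49 and 30 of 30 cycling cells, against 1.86%, 2.03%, 1.86% and 4.92% of mesenchymal cells (at least 2 *Prrx1* UMIs and none of *Pecam1* or *Ptprc*) at a median of 29666, 23661, 28736 and 23509 UMIs. Because these mesenchymal cells were chosen without a *Pecam1* UMI, low shares of endothelial genes in them were partly set by that choice. As chosen, *Mki67* was at 271, 370, 325 and 428 CPM and *Top2a* at 364, 651, 445 and 783 CPM in control_4d, control_7d, RA_4d and RA_7d. Markers of other cells were present at uneven levels. The 8 mesenchymal genes, led by *Col1a1*, summed to 195, 3066, 1506 and 553 CPM in the cycling cells and to 2073, 4427, 931 and 5963 CPM in the non-cycling cells, with none at 0 in either class. *Prrx1*, the mesenchymal marker of the study, was at 1.71, 24.8, 49.0 and 2.72 CPM in the cycling cells. The 9 macrophage genes, led by *Lyz2*, summed to between 39.5 and 88.5 CPM in cycling cells, and the 7 mural genes, led by *Acta2*, to between 28.6 and 103 CPM. Erythroid genes, led by *Hbb-bs*, were at 67.4, 106, 3.31 and 848 CPM. Neutrophil genes, led by *S100a9*, were at 7.42, 17.3, 52.97 and 4.08 CPM, with 3 of 6 at 0 in RA_4d, and lymphocyte genes reached 315 CPM there, nearly all of it *Ccl5*, with 4 of 7 at 0. Muscle and megakaryocyte genes, led by *Des* and *Itga2b*, did not exceed 25.1 CPM in the cycling cells of any library.

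The cycling cells held transcripts of DNA synthesis and of mitosis in varying shares, which do not by themselves place a cell in a phase. The 33 replication genes, which include the helicase subunits and the enzymes of deoxynucleotide supply, took a median 0.245% of a cycling cell's UMIs and 0.0403% of a non-cycling cell's. The 49 mitosis genes, which include the mitotic kinases, cyclins and kinesins, took 0.598% and 0.0480%. Both lists follow what the rule selected, so their differences are a description without a test. Mitosis transcripts exceeded replication transcripts in 152 of 200 cycling cells. In the same order of libraries, the median mitosis share was 0.460%, 0.731%, 0.478% and 0.907%, and the median replication share was 0.238%, 0.277%, 0.157% and 0.332%. Both were thus lower at 4 dpf than at 7 dpf in control and in RA callus, and the RA_4d cells had the lowest replication share. The cycling cells at 4 dpf were also deeper, at a median of 35136 and 30811 UMIs against 25002 and 23472 at 7 dpf. A limit on raw UMIs admits lower shares in deeper cells, and its part in this difference was not tested. The interquartile range of the mitosis share was 0.310% to 0.786%, 0.338% to 1.16%, 0.303% to 0.866% and 0.598% to 1.15% in the same order of libraries. These ranges overlapped, as did those of the replication share. Above the 99th percentile of non-cycling cells, 116 cycling cells stood out for both lists, 70 for mitosis alone and 2 for replication alone. The other 12 exceeded it for neither list, with 3, 4, 3 and 2 of them in control_4d, control_7d, RA_4d and RA_7d.

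**Figure D1:**
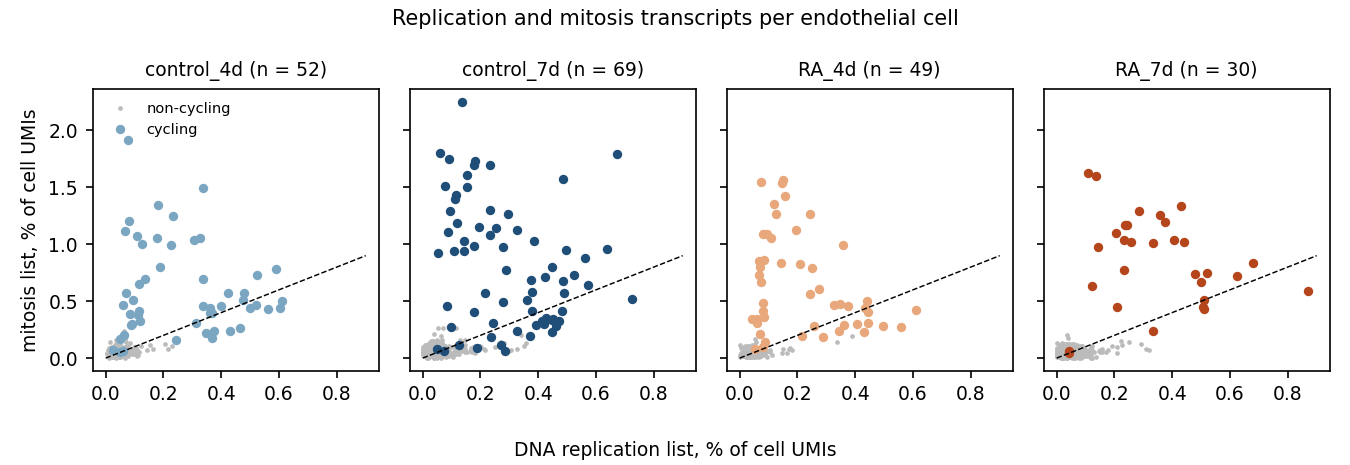
Share of each endothelial cell's UMIs on the DNA replication list (x axis, percent) and the mitosis list (y axis, percent) in each library. Filled points are the 52, 69, 49 and 30 cycling cells and grey points the non-cycling cells. Along the dashed line both shares are equal, and 152 of 200 cycling cells lie above it.

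All 33 replication genes and 48 of 49 mitosis genes were higher in the cycling cells, with a median log2 fold change of 2.76 and 5.28. The *Mcm5* helicase subunit was at 85.7, 75.1, 69.5 and 83.0 CPM in the cycling cells of control_4d, control_7d, RA_4d and RA_7d, against 6.57, 10.2, 8.54 and 4.52 CPM in the non-cycling cells. *Rrm2*, the regulated subunit of ribonucleotide reductase, was at 98.2, 93.6, 67.5 and 121 CPM against 4.21, 3.60, 3.28 and 2.36 CPM. In both genes every cycling value was far above every non-cycling value. The mitotic kinase *Plk1* was at 60.0, 69.3, 78.1 and 70.8 CPM against less than 1 CPM in each non-cycling sum. *Ube2c*, whose promoter is shown above, was at 322, 486, 366 and 452 CPM against 6.05, 6.28, 5.91 and 2.22 CPM. The exception was the securin gene *Pttg1*, at 24.6, 35.2, 28.5 and 28.6 CPM against 31.8, 35.1, 23.5 and 31.4 CPM. Its groups overlapped (log2 fold change -0.04 ± 0.14). The 10 largest rises outside these lists were *Pimreg*, *Depdc1a*, *Esco2*, *Neil3*, *Cep55*, *Shcbp1*, *Pclaf*, *Kif15*, *Dlgap5* and *Mxd3*. They are also given without a test. *Pclaf*, a PCNA-binding protein, was at 303, 384, 273 and 576 CPM against 4.21, 4.42, 3.12 and 1.15 CPM. *Esco2*, a cohesin acetyltransferase of S phase, showed the same order of libraries, with 44.0, 79.2, 31.1 and 89.9 CPM against at most 0.394 CPM.

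The share of endothelial cells that were cycling was lowest in RA_7d. It was 8.21% (52 of 633, exact 95% binomial interval 6.20 to 10.6%) in control_4d, 7.58% (69 of 910, 5.95 to 9.50%) in control_7d, 10.6% (49 of 462, 7.95 to 13.8%) in RA_4d and 2.42% (30 of 1242, 1.64 to 3.43%) in RA_7d. The interval of RA_7d did not overlap the other 3 intervals, which overlapped each other. Divided by the control share, the RA share came to 1.29 (0.856 to 1.94) at 4 dpf and 0.319 (0.200 to 0.496) at 7 dpf, and the ratio of 7 to 4 dpf was 0.923 (0.635 to 1.35) in control and 0.228 (0.140 to 0.366) in RA callus. Intervals hold counting error alone and leave out the spread between pools of mice. Because the libraries differed in depth, the *Mki67* and *Top2a* counts of each cell were also thinned at random to a depth of 4000 UMIs. The endothelial gate was not thinned, so the endothelial cells counted stayed the same. The shares were then 1.58%, 2.75%, 3.46% and 0.966%, RA_7d was again lowest but its interval overlapped that of control_4d (upper bound 1.68% against a lower bound of 0.760%), and the RA share at 7 dpf was 0.352 times that of control (0.161 to 0.726).

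Other cells of the same libraries gave a reference for these shares. Of the same mesenchymal cells, 8.70%, 5.10%, 8.46% and 2.10% passed the cycling limits in control_4d, control_7d, RA_4d and RA_7d. Of macrophages with *Csf1r*, *Cd68* and *Ptprc* UMIs, 6.08%, 3.37%, 8.38% and 1.39% did. RA_7d was thus lowest in all 3 classes. Cells that should not divide were scarce within the cell filter. The *S100a8*-high, *Cxcr2*-positive cells intended as a background included 37.3% (81 of 217) that passed the cycling limits and could not serve as one. Of 55 mature neutrophils (*Retnlg*-positive, *Ngp*-negative) found with a looser filter, 1 passed (1.82%, 0.0460 to 9.72%), at a median of only 3995 UMIs. The upper limits on UMIs and genes also removed cycling cells unequally, since lifting them added 55, 14, 37 and 10 to the libraries in the same order. The shares then were 14.8%, 8.66%, 16.7% and 3.08%, and the ratio of 7 to 4 dpf in control callus was 0.583 (0.432 to 0.784).

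**Figure D2:**
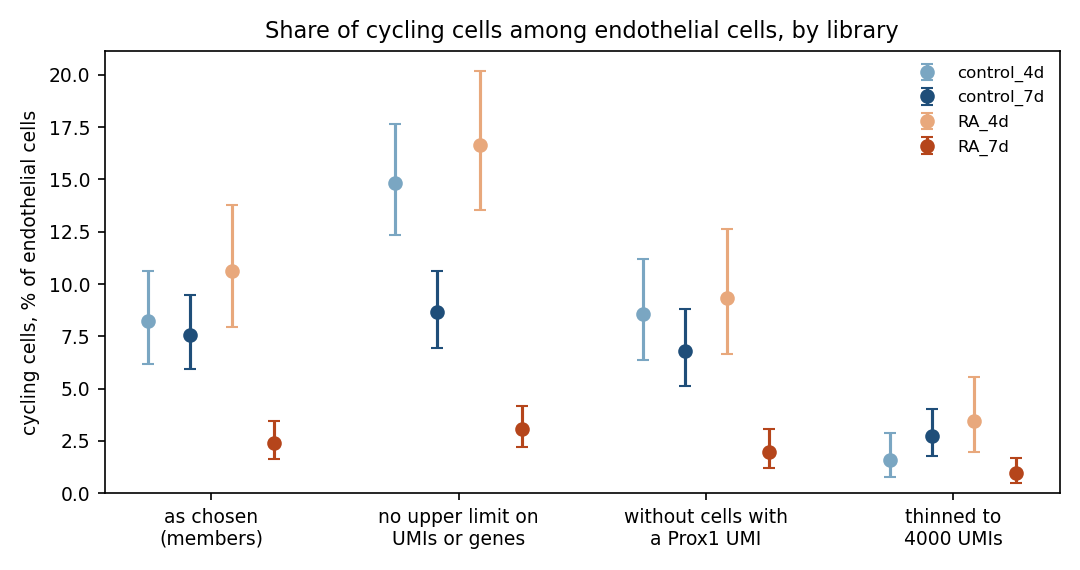
Cycling cells as percent of endothelial cells (y axis, from 0) in each library, with exact 95% binomial intervals as bars, under 4 settings (x axis). RA_7d is the lowest library in each setting, at 2.42% as chosen, whereas the order of the other 3 differs between settings.

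To find what else set the cycling cells apart, UMIs were summed per library and class and tested over 12242 genes with edgeR, with the library as a block and the 5 genes of the rule left out. Of all genes tested, 2096 (17.1%) were higher and 1723 (14.1%) lower in the cycling cells at an adjusted p under 0.05, and the median log2 fold change was -0.02. These counts include genes of the replication and mitosis lists, which the rule selects for. The counts for each list below are read against these shares. With cells that held an *Ackr1*, *Selp* or *Vwf* UMI (called venular cells below) left out of both classes, 1133 genes were higher and 745 lower, and fewer genes entered. This left 21, 35, 21 and 15 cycling and 110, 265, 73 and 280 non-cycling cells in control_4d, control_7d, RA_4d and RA_7d. The shares of 17.1% and 14.1% do not apply to that setting. Whether calls were lost there through fewer cells was not tested. A fall of a cell type's genes in summed UMIs does not distinguish fewer cells of that type from less RNA of those genes per cell.

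Venular genes were lower in the cycling cells. Of the 10 venous genes, 8 were lower and none (0) higher, with a median log2 fold change of -1.75. *Selp*, the P-selectin by which venules capture leukocytes, was at 87.9, 42.2, 78.8 and 151 CPM in cycling cells of control_4d, control_7d, RA_4d and RA_7d, against 470, 275, 666 and 550 CPM in non-cycling cells. *Ackr1*, the venular chemokine receptor, was at 35.4, 17.9, 25.2 and 49.0 CPM against 256, 148, 268 and 215 CPM. Every cycling value was below every non-cycling value for both genes (log2 fold change -2.50 ± 0.17, adjusted p = 6.87e-06, and -2.87 ± 0.17, adjusted p = 2.8e-06, lower in 4 of 4 libraries). *Vwf*, von Willebrand factor, behaved alike, at 64.0, 48.0, 39.1 and 129 CPM against 428, 208, 447 and 452 CPM (-2.51 ± 0.23, adjusted p = 4.63e-05). *Lbp*, which binds lipopolysaccharide, had the largest fall of the list (-3.54 ± 0.31, adjusted p = 3.33e-05). A *Selp* UMI was found in 14 of 52, 16 of 69, 19 of 49 and 9 of 30 cycling cells (23.2% to 38.8%), above the 1.02% to 1.94% of mesenchymal cells and below the 40.3% to 62.2% of the shallower non-cycling cells. *Nr2f2*, the transcription factor of venous identity, fell least among these (-0.70 ± 0.11, adjusted p = 0.00136) and its values overlapped.

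Adhesion and activation genes followed the venular ones, and the lists share *Selp*, *Ackr1* and *Il1r1*. Of 16 genes, 15 were lower and none (0) higher (median -1.34). *Vcam1*, which holds leukocytes at the vessel wall, was at 58.3, 49.7, 54.3 and 32.7 CPM against 106, 120, 162 and 122 CPM (-1.33 ± 0.15, adjusted p = 0.000181), with no overlap. *Icam1*, its partner in adhesion, was at 112, 71.6, 118 and 101 CPM against 241, 166, 293 and 235 CPM (-1.20 ± 0.08, adjusted p = 6.87e-06). *Sele* (-1.75 ± 0.25, adjusted p = 0.000726) and the cytokine gene *Il6* (-1.53 ± 0.21, adjusted p = 0.000479) were lower without overlap. The chemokine gene *Ccl2* was the exception, with 32.0, 52.0, 499 and 74.9 CPM against 47.5, 67.2, 27.9 and 33.8 CPM (adjusted p = 0.234), and 1 cell held 43.0% of its UMIs in RA_4d. When cells with an *Ackr1*, *Selp* or *Vwf* UMI were left out of both classes, an alternative chosen after seeing the data, 5 of the 11 adhesion genes still tested and 2 of the 7 venous genes were lower, with medians of -0.51 and -0.27. Both lists hold *Selp* and *Ackr1*, and the venous list holds *Vwf*. Smaller falls of these lists were therefore partly set by which cells were left out.

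Arterial, capillary and flow-responsive genes were also lower. Of 13 arterial genes, 9 were lower and none (0) higher (median -1.17). *Fbln5*, an elastic fibre protein, was at 56.5, 62.4, 67.5 and 70.8 CPM against 235, 147, 270 and 223 CPM (-1.73 ± 0.14, adjusted p = 1.93e-05). *Mgp*, matrix Gla protein, was more uneven, at 12.6, 169, 266 and 96.7 CPM against 304, 602, 519 and 694 CPM (-2.23 ± 0.40, adjusted p = 0.00237). Neither gene overlapped between the classes, and *Mgp* did not pass with the venular cells left out (-1.16). Of 12 capillary genes tested, 7 were lower and 1 higher. *Aqp1*, the water channel, was at 211, 168, 183 and 290 CPM against 1337, 467, 1477 and 1344 CPM (-2.33 ± 0.21, adjusted p = 4.24e-05), whereas *Gpihbp1*, which carries lipoprotein lipase to the capillary lumen, was slightly higher (0.32 ± 0.10, adjusted p = 0.0327). In an alternative comparison, 3 non-cycling cells nearest in total UMIs were taken per cycling cell. This narrowed the gap in depth without closing it, since the median was 23747 UMIs against 35136 in the cycling cells of control_4d, 19246 against 25002 in control_7d, 24412 against 30811 in RA_4d and 23171 against 23472 in RA_7d. No capillary gene was higher (0) with these depth-nearest cells, without the block, without venular or mesenchymal-high cells, or without control_4d, control_7d or RA_4d. Of 10 genes of laminar flow and quiescence, 8 were lower (median -0.65). *Klf4*, a flow-induced transcription factor, was at 144, 171, 150 and 236 CPM against 447, 345, 452 and 550 CPM (-1.35 ± 0.12, adjusted p = 2.66e-05), and *Klf2* fell less (-0.55 ± 0.09, adjusted p = 0.00128). With the venular cells left out, 9 of 11 arterial genes, 6 of 11 capillary genes and 7 of 10 flow genes were lower.

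Several genes of sprouting were higher. Of 16 tip cell genes, 9 were higher and none (0) lower (median 0.46). *Esm1*, a proteoglycan secreted by tip cells, was at 73.7, 57.2, 21.9 and 25.9 CPM against 36.2, 27.6, 6.73 and 6.13 CPM. It was higher in the cycling cells of 4 of 4 libraries, although the classes overlapped across libraries, since both were lower in RA than in control callus (1.33 ± 0.19, adjusted p = 0.00058). In RA_4d, 2 cells held 90.9% of the *Esm1* UMIs of the cycling class, and in RA_7d 1 cell held 84.2%. *Nid2*, a basement membrane linker, was at 127, 141, 139 and 151 CPM against 53.4, 95.8, 52.2 and 62.3 CPM without overlap (1.12 ± 0.14, adjusted p = 0.000263). *Angpt2*, the TEK ligand that loosens vessels, was at 70.8, 135, 144 and 199 CPM against 64.4, 103, 72.4 and 88.0 CPM (0.69 ± 0.16, adjusted p = 0.00865). *Apln*, the tip cell peptide, was higher in 3 of 4 libraries, with 116, 121, 84.8 and 32.7 CPM against 58.9, 93.9, 42.0 and 39.4 CPM (0.62 ± 0.18, adjusted p = 0.0248). Its receptor gene *Aplnr* did not pass the test (adjusted p = 0.618), nor did the Notch ligand gene *Dll4* (adjusted p = 0.35). The count of higher tip cell genes was 4 of 14 with the depth-nearest non-cycling cells and 3 of 14 without the venular cells, and *Esm1* passed in neither (0.56 and 0.72). The count was 3 of 16 without the block and 4 with the stricter cycling limits, where *Esm1* did not pass either (1.30 and 0.88). It was 5 without control_4d. The 3 of 16 lay near the background of 17.1%, and without the block 1996 of all genes were higher. *Angpt2* did not pass without cells that held a *Prox1* UMI (0.30).

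**Figure D3:**
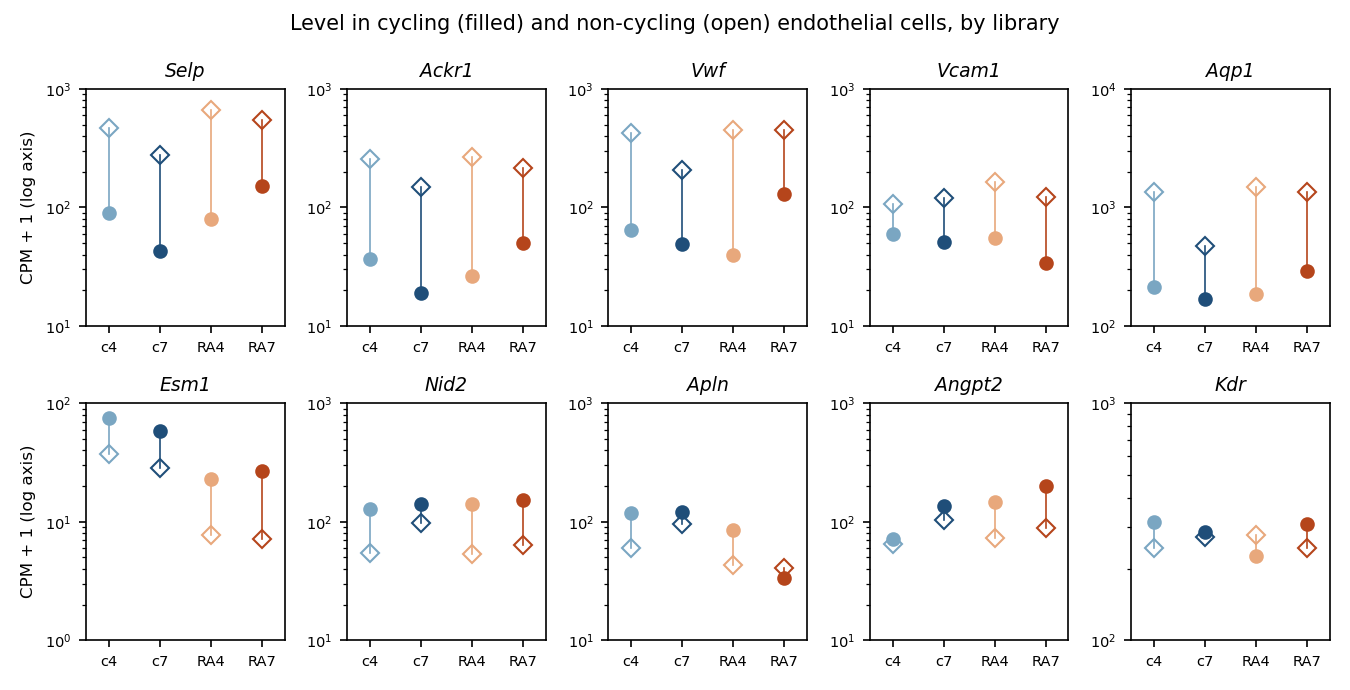
Level (CPM + 1, log axis) of 10 genes in cycling (filled circles) and non-cycling (open diamonds) endothelial cells of control_4d (c4), control_7d (c7), RA_4d (RA4) and RA_7d (RA7), 1 sum per class and library. The filled circles of *Selp*, *Ackr1*, *Vwf*, *Vcam1* and *Aqp1* lie below all open diamonds, those of *Nid2* lie above them, and *Kdr* overlaps.

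Of 14 receptors and ligands of the VEGF and angiopoietin pathways, 3 were higher and 7 lower (3 and 4 with depth-nearest cells, 1 and 4 of 13 without venular cells). The share of higher genes was near the background of 17.1%. Only 1 was higher without control_7d and 1 without cells that held a *Prox1* UMI. The receptor genes *Flt1* (-0.61 ± 0.10, adjusted p = 0.00138), *Tek* (-0.59 ± 0.10, adjusted p = 0.00177) and *Tie1* (-0.33 ± 0.09, adjusted p = 0.0187) were lower without overlap, and *Tek* did not pass with depth-nearest cells (-0.34). *Ptprb*, the phosphatase that restrains TEK, was at 425, 348, 334 and 432 CPM against 694, 569, 837 and 826 CPM (-0.90 ± 0.11, adjusted p = 0.000295). Among the ligands, *Vegfa* was at 5.71, 6.36, 9.27 and 5.45 CPM against 23.9, 18.5, 17.1 and 25.1 CPM (-1.59 ± 0.24, adjusted p = 0.000928), and *Vegfb* was higher (0.96 ± 0.21, adjusted p = 0.00677), though it did not pass without control_7d (0.71). In the Notch pathway, 3 of 14 genes tested were lower and none (0) higher, a share of lower genes near the background of 14.1%. The 3 were ligands. *Jag1* was at 43.4, 36.4, 37.1 and 30.0 CPM against 79.5, 85.5, 83.4 and 78.5 CPM (-1.13 ± 0.12, adjusted p = 0.000126). Beside it were *Dll1* (-1.57 ± 0.23, adjusted p = 0.000806) and *Jag2* (-0.71 ± 0.17, adjusted p = 0.0109). *Dll1* did not pass without venular cells (-0.93), and *Jag2* did not pass without RA_4d (-0.54). The receptor gene *Notch1* (adjusted p = 0.0964) and the target gene *Hey1* (adjusted p = 0.113) did not pass. Of 14 genes of the BMP and TGF-beta response, 10 were lower and 1 higher. The lower ones included the inhibitor *Smad6* (-1.23 ± 0.22, adjusted p = 0.00244) and the ligand *Bmp4* (-1.16 ± 0.14, adjusted p = 0.000252). Without venular cells *Bmp4* did not pass (-0.35). No gene of that list was higher (0) with DESeq2, without the block, with depth-nearest cells, without venular cells, or without control_4d or RA_4d.

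Pan-endothelial genes were modestly lower, 12 of 22 passing the test and none (0) higher (median -0.31). *Clec14a*, an endothelial lectin, was at 93.1, 59.5, 72.8 and 80.3 CPM against 184, 160, 189 and 197 CPM (-1.25 ± 0.10, adjusted p = 2.14e-05), and its ligand gene *Mmrn2* fell likewise (-1.14 ± 0.11, adjusted p = 6.38e-05). With the depth-nearest non-cycling cells, 5 of 22 were lower, and 6 without venular cells. Of 15 interferon and antigen presentation genes, 8 were lower, including *Ifitm3* (-0.70 ± 0.07, adjusted p = 6.81e-05) and *Cd74* (-1.19 ± 0.29, adjusted p = 0.0115), which did not pass without control_7d (-1.09) or with the depth-nearest cells (-0.63). The list's count of lower genes was 4 of 14 with depth-nearest cells and 4 of 15 without control_7d. Basement membrane genes went the other way, 8 of 13 being higher and 1 lower. *Lama4*, the laminin chain of growing vessels, was at 273, 351, 296 and 302 CPM against 143, 223, 140 and 181 CPM (0.86 ± 0.09, adjusted p = 6.85e-05), whereas *Lama5* was lower (-0.60 ± 0.10, adjusted p = 0.00206). The list's count depended on the comparison cells, with 3 of 13 higher with the depth-nearest non-cycling cells (median 0.10). It was 2 higher and 2 lower without venular cells (0.04), 4 higher without control_4d and 5 higher without RA_7d.

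Among regulators of G1, 4 of 16 genes tested were higher and 4 lower. *Ccnd1*, cyclin D1, was at 238, 207, 181 and 178 CPM against 117, 174, 111 and 134 CPM (0.62 ± 0.12, adjusted p = 0.00443). *Ccnd2*, cyclin D2, went in the opposite direction, at 16.6, 30.6, 35.1 and 28.6 CPM against 97.4, 98.2, 118 and 101 CPM (-1.92 ± 0.15, adjusted p = 1.57e-05), and neither gene overlapped. Of the CDK inhibitors, *Cdkn2c* was higher (1.79 ± 0.20, adjusted p = 0.000143), *Cdkn1c* lower (-1.25 ± 0.19, adjusted p = 0.000936), and *Cdkn1a* did not pass (adjusted p = 0.432). Enzymes of nucleotide and one-carbon synthesis were higher in 14 of 17 cases and lower in none (0), with 9 higher without control_4d or with the stricter limits. *Cad*, which starts pyrimidine synthesis, was at 24.0, 20.2, 23.8 and 24.5 CPM against 6.84, 11.6, 6.57 and 8.76 CPM (1.48 ± 0.22, adjusted p = 0.000976), and mitochondrial *Mthfd2* of the folate cycle was higher without overlap (1.25 ± 0.14, adjusted p = 0.000185). Of 15 glycolysis genes, 6 were higher and 1 lower. *Pgk1* was at 251, 175, 197 and 196 CPM against 140, 132, 120 and 91.5 CPM (0.77 ± 0.11, adjusted p = 0.000707), and the regulator *Pfkfb3* was lower (-0.86 ± 0.16, adjusted p = 0.00281). Of 11 p53 targets, 2 were higher and 1 lower, a share of higher genes near the background of 17.1%. The count of higher targets was 1 with depth-nearest cells or without control_4d, control_7d or RA_7d, and 0 without venular cells, and no target was lower (0) without the block, with depth-nearest cells, or without control_4d or RA_4d.

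**Figure D4:**
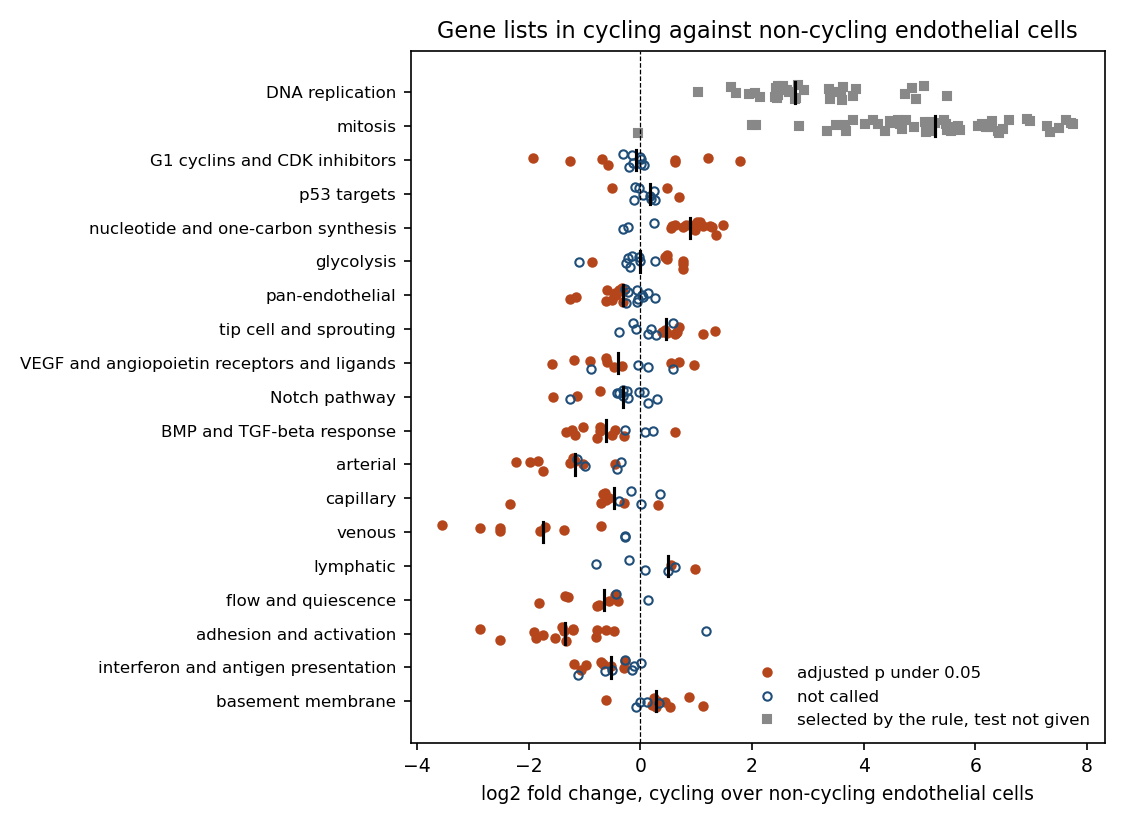
Log2 fold change of each tested gene in cycling over non-cycling endothelial cells (x axis), by gene list (y axis), without the lists of other cells. Filled circles passed the edgeR test, open circles did not, squares belong to lists that the rule selects, whose test results are not given, and bars are medians, which run from 5.28 for mitosis to -1.75 for the venous list.

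The largest falls over all genes outside the other-cell lists were *Lbp*, *Fmo2*, *C3*, *Chp2*, *Dpt*, *Ackr1*, *Mctp1*, *Slfn5*, *Serping1* and *Eln*. *Mctp1*, a calcium-binding membrane protein, was at 102, 84.9, 134 and 168 CPM against 808, 605, 912 and 889 CPM (-2.74 ± 0.10, adjusted p = 1.39e-07). *Slfn5*, an interferon-inducible Schlafen protein, was at 69.7, 49.1, 57.6 and 38.1 CPM against 345, 271, 403 and 372 CPM (-2.64 ± 0.14, adjusted p = 1.19e-06). *Chp2* (-3.07 ± 0.24, adjusted p = 1.39e-05) and *Eln*, elastin (-2.59 ± 0.26, adjusted p = 6.98e-05), were also lower in 4 of 4 libraries. *C3*, *Dpt* and *Serping1* are abundant in fibroblasts, and the mesenchymal list stood lower in the cycling cells of control_4d, control_7d and RA_7d and higher in those of RA_4d, where the 2 highest cells for each gene held 81.7% of the *Col1a1* UMIs and 81.1% of the *Prrx1* UMIs. With cells above 0.1% of UMIs on the mesenchymal list left out of both classes, an alternative also added after seeing the data, *C3* no longer passed (-0.95), *Serping1* did (-2.52) and *Dpt* was too low to be tested.

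Lymphatic genes lay in a minority of the cycling cells. *Prox1*, the transcription factor of lymphatic identity, had a UMI in 4 of 52, 17 of 69, 12 of 49 and 11 of 30 cycling cells (7.69%, 24.6%, 24.5% and 36.7%), and in 12.3%, 13.2%, 13.9% and 23.1% of non-cycling cells. A *Prox1* UMI was also found in 15.9%, 8.79%, 12.9% and 7.83% of the mesenchymal cells, so that by itself it did not mark a lymphatic cell, and the share in control_4d did not exceed that background. Among endothelial cells with a *Prox1* UMI, the cycling share was 5.48% (4 of 73, 1.51 to 13.4%) in control_4d, 11.9% (17 of 143, 7.08 to 18.4%) in control_7d, 18.2% (12 of 66, 9.76 to 29.6%) in RA_4d and 3.93% (11 of 280, 1.98 to 6.92%) in RA_7d. The interval of RA_7d did not overlap those of RA_4d and control_7d. Of the 7 lymphatic genes, 2 were higher in cycling cells and none (0) lower. The count was 5 of 7 with the depth-nearest non-cycling cells (median 0.99) and 4 of 7 without control_4d, but 0 with DESeq2, without the library block, without venular cells, with the stricter cycling limits, and without control_7d or RA_7d. *Lyve1*, the hyaluronan receptor, was at 31.4, 88.4, 101 and 357 CPM against 47.1, 43.0, 44.3 and 104 CPM (0.98 ± 0.29, adjusted p = 0.0285, higher in 3 of 4 libraries). *Flt4*, the VEGF-C receptor, was at 49.7, 90.7, 74.2 and 174 CPM against 46.8, 63.7, 62.4 and 72.9 CPM (0.55 ± 0.18, adjusted p = 0.0402, higher in 4 of 4). Both genes overlapped between the classes, and both were lowest in the cycling cells of control_4d and highest in those of RA_7d. Neither passed without the venular cells, where the log2 fold change was 0.23 for *Lyve1* and -0.10 for *Flt4*. The calls were also lost, at folds nearer to those above, with DESeq2 (0.89 and 0.53) and with the stricter cycling limits (0.81 and 0.47). The same held without the library block (1.17 and 0.60). *Flt4* did not pass without cells that held a *Prox1* UMI (0.485). Leaving out 1 library also ended the call of *Lyve1* (0.92 without control_7d, 0.93 without RA_4d and 0.64 without RA_7d) and of *Flt4* (0.53 without control_7d and 0.30 without RA_7d).

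RA and control callus were then compared within the cycling cells, as ratios of CPM with 10 CPM added, and without a test. Of 8888 genes with at least 30 UMIs, 163 (1.83%) had a log2 ratio of at least 1 and 44 (0.495%) of at most -1 at 4 dpf. At 7 dpf these were 50 (0.601%) and 96 (1.15%) of 8319 genes. With 1 CPM added instead, they were 352 and 118 at 4 dpf and 127 and 233 at 7 dpf. Without cells that held a *Prox1* UMI, 97 genes were at least 1 at 4 dpf. Of 14 tip cell genes compared, 1 was at most -1 at each time and none (0) at least 1. *Apln* was at 116 and 121 CPM in control callus at 4 and 7 dpf and at 84.8 and 32.7 CPM in RA callus, a log2 ratio of RA to control of -0.42 at 4 dpf and -1.61 at 7 dpf. In the non-cycling cells the ratios were -0.41 and -1.07. *Igfbp3*, an insulin-like growth factor binding protein, was at 246, 248, 126 and 66.7 CPM (-0.91 and -1.75, against -0.55 and -1.14 in non-cycling cells). *Spp1*, osteopontin, was at 54.3, 82.0, 13.2 and 2.72 CPM (-1.47 and -2.85, against -1.43 and -0.99 in non-cycling cells), but 73.9% of its UMIs in control_7d lay in 1 cell. Other falls chosen by size at 7 dpf were *Itm2a*, *Gpx3*, *Plcl1* and *Ablim3*, with log2 ratios of -2.02, -1.45, -1.16 and -1.12. In the non-cycling cells these ratios were 0.02, -0.31, -0.32 and 0.23. In control_7d 2 cycling cells held 57.65% of the *Itm2a* UMIs.

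Most UMIs of several genes named as higher in RA lay in cells with a *Prox1* UMI (here *Prox1*-positive). *Ccl21a*, the lymphatic chemokine, whose near-identical gene copies can share reads, was at 32.5, 564, 295 and 1462 CPM (control_4d, control_7d, RA_4d, RA_7d), and at least 99.9% of its UMIs lay in *Prox1*-positive cells. The same cells held 85.5% to 100% of the *Lyve1* UMIs of a library. *Fgl2*, a fibrinogen-like immune regulator, was at 2.86, 12.7, 76.2 and 92.6 CPM, with 92.2% and 100% of its UMIs in such cells of RA_4d and RA_7d. The 2 highest cells for each gene held 73.0% of the *Fgl2* UMIs and 86.5% of the *Ccl21a* UMIs of RA_4d. In RA_7d 1 cell held 61.8% of the *Fgl2* UMIs. *Cpe* was spread more widely, its highest cell holding 14.3% of its UMIs in RA_7d. *Isg15*, an interferon-induced modifier, was at 24.6, 48.5, 214 and 142 CPM, and its 2 highest cells held 89.2% of its UMIs in RA_4d and 80.8% in RA_7d. *Ccl5* was at 0, 0.578, 311 and 131 CPM, from 2 of 49 cells in RA_4d and 4 of 30 in RA_7d, where 1 cell held 93 of the 96 UMIs. *Fign*, *Chga* and *Cpe* completed this group, with log2 ratios of 1.74, 1.38 and 1.26 at 7 dpf, and 1 cell held 64.9% of the *Fign* UMIs and 1 cell 69.2% of the *Chga* UMIs of RA_7d. In the non-cycling cells these ratios were 0.144, 0.665 and 0.585. There *Ccl21a*, *Lyve1*, *Fgl2*, *Isg15* and *Ccl5* were at 0.718, 1.101, 1.562, -0.39 and 0.382 at 7 dpf. In the cycling cells these genes were at 1.358, 1.898, 2.175, 1.373 and 3.734. With *Prox1*-positive cells left out, *Isg15* turned to -0.13 at 4 dpf and -0.43 at 7 dpf.

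Between 4 and 7 dpf, 169 of 9068 genes (1.86%) had a log2 ratio of at least 1 in the control cycling cells and 31 (0.342%) of at most -1. In RA they were 85 (1.05%) in each direction of 8070. With 1 CPM added instead of 10 CPM, the counts were 360 and 98 in control and 200 and 221 in RA. *Ctla2a*, a cysteine protease inhibitor with a near-identical paralog in *Ctla2b*, was at 3628, 1213, 2612 and 1472 CPM in the 4 libraries, and was detected in 52 of 52, 65 of 69, 47 of 49 and 29 of 30 cells, against 6.01% to 9.43% of the mesenchymal cells. Its log2 ratio of 7 to 4 dpf was -1.57 in control and -0.82 in RA callus, against -0.585 and -0.729 in the non-cycling cells. *Rbp7*, a retinoid-binding protein of capillaries, was at 132, 42.2, 53.6 and 25.9 CPM (-1.44 and -0.83), and *Stmn2*, a tubulin regulator of the arterial list, at 279, 55.5, 81.5 and 44.9 CPM (-2.14 and -0.73). In the non-cycling cells the ratios were -0.981 and -0.403 for *Rbp7* and -0.794 and -0.722 for *Stmn2*. *Ctla2b*, *Eif2b3* and *Acta2* were the other falls, at -1.14, -1.55 and -1.17 in control callus, but 1 cell held 68.7% of the *Eif2b3* UMIs of control_4d and 2 cells held 93.7% of its *Acta2* UMIs. These genes were at -0.395, 0.237 and -0.006 in the non-cycling cells of control callus. The rises in control callus were *Ccl21a* (3.75), *Postn* (3.53), *H19* (2.90), *Scn3a* (2.85), *Reln* (2.82) and *Itm2a* (2.69). The non-cycling cells of control callus had 0.508, 1.253, 1.423, 1.438, 0.287 and 1.383 for these genes. *Prox1*-positive cells of control_7d held 100% of the *Scn3a* UMIs and 86.8% of the *Reln* UMIs, and 2 cells held 72.4% of its *H19* UMIs. *Postn*, a mesenchymal list gene, was at 15.4, 284, 54.3 and 58.5 CPM, beside the summed mesenchymal level given above.

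**Figure D5:**
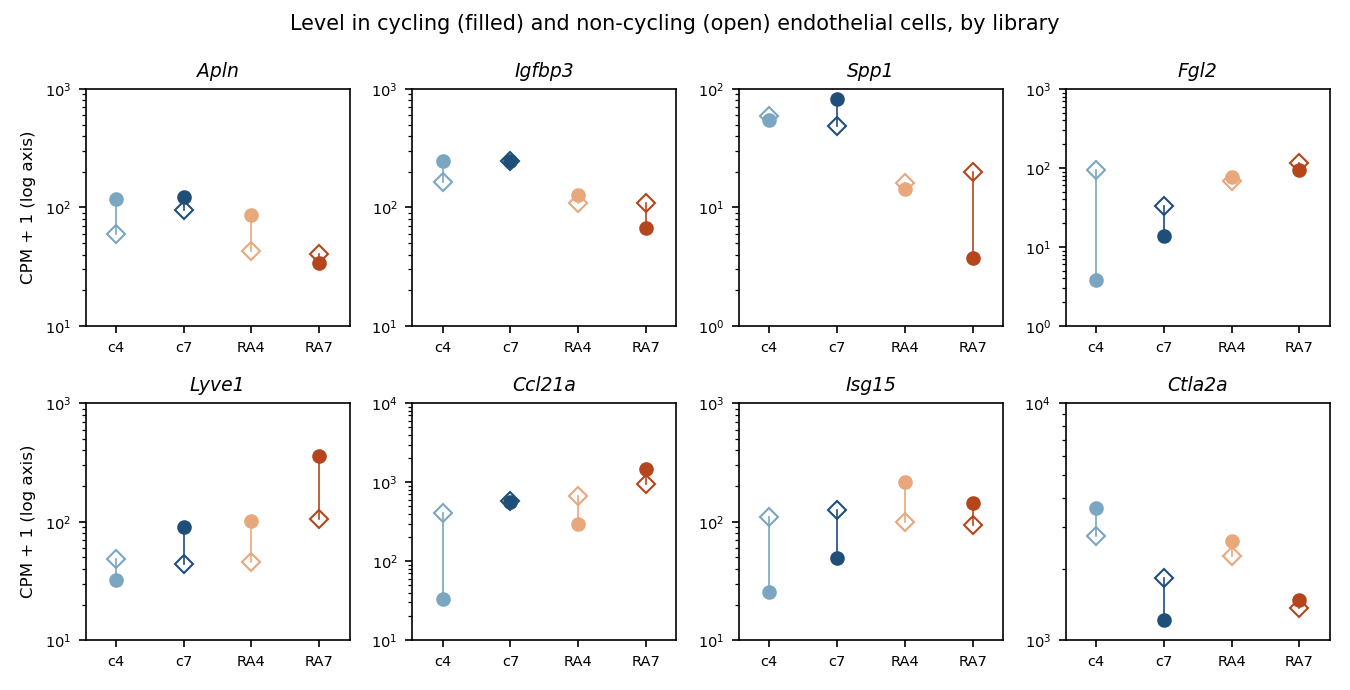
Level (CPM + 1, log axis) of 8 genes in cycling (filled circles) and non-cycling (open diamonds) endothelial cells of control_4d (c4), control_7d (c7), RA_4d (RA4) and RA_7d (RA7), 1 sum per class and library, without replicates. Among the filled circles, *Apln*, *Igfbp3* and *Spp1* are lowest in RA_7d, where *Lyve1*, *Ccl21a* and *Fgl2* are highest.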

How the data were processed

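Per the labels and the methods of the study, the authors aligned 4 libraries with Cell Ranger 7.0.1 to mm10 (submitters' processing notes) and deposited raw UMI counts of 32285 genes per cell barcode, not normalized. The members, gene lists and tests were chosen with earlier results of these data known. The study's limits kept 25479 of 34038 barcodes. The kept cells held 108438906, 141714572, 83405494 and 156567619 UMIs in control_4d, control_7d, RA_4d and RA_7d, and the cycling cells 1751159, 1730813, 1510148 and 734488. Doublets called by Scrublet (scanpy 1.11.5) were kept.

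UMIs were summed into 8 sums, 1 per library and class, filtered for low counts (filterByExpr), scaled by TMM and tested with the quasi-likelihood test of edgeR 4.0.16 in R 4.3.3, with library as a block (3 residual degrees of freedom) and Benjamini-Hochberg adjustment over 12242 genes. These p-values measure the spread of the class difference over 4 libraries that also differ in condition and time. Fold changes are log2, cycling over non-cycling, with SE. In simulated data on 12046 genes for this comparison, 62 of 99 changes of size 1 and 17 of 99 of size 0.5 on the log2 scale were recovered, with 4 false calls. The simulated libraries shared the same profile and few genes changed, unlike the real libraries. These figures therefore do not give the error rate of the real comparison. Shares carry exact Clopper-Pearson 95% intervals and ratios of shares exact conditional ones. Between libraries, the pseudocount was 10 CPM and a gene needed 30 UMIs in the pair, so log2 ratios understate the change of low genes. Python 3.11.15 and scipy 1.17.1 made the other tables.

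Named genes were the markers; in each list, up to 4 with the largest fold change among those that passed, and members whose role is described; the 10 largest rises and falls at 20 CPM or more with 1 direction in all 4 libraries; and, at 50 CPM or more with the same direction in the matching comparison, the 8 largest rises and falls of RA to control at 7 dpf and the 6 largest of time in control. Predicted, mitochondrial, ribosomal, haemoglobin and sex-linked genes were left out of the size rankings. Of 28 lists, 9 mark other cells. Alternatives were DESeq2 1.42.0, no low-count filter, no block, leaving out each library, depth-nearest or *Ptprc*-unrestricted non-cycling cells, other cycling limits, a looser cell filter, thinning, further endothelial genes, no doublets, and, between libraries, another pseudocount, UMI minimum or TMM. Alternatives without venular, *Prox1*-positive or mesenchymal-high cells or without upper limits were added after seeing the data. The study's other experiments were not analysed here. Some genes that the rule names, and 1 list of other cells, are not reported here.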

Additional observations from a re-analysis of the deposited data

Results flagged for a closer look

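The cycling share of endothelial cells was above that of control in RA callus at 4 dpf and below it at 7 dpf. The RA share divided by the control share was 1.29 (0.856 to 1.94) at 4 dpf and 0.319 (0.200 to 0.496) at 7 dpf. With 1 library per condition the difference between these ratios was not tested, and the interval at 4 dpf includes 1. With the looser cycling limits both ratios were below 1 (0.871 and 0.736).

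Barcodes outside the limits on UMIs, genes and mitochondrial share, which no comparison of the main classes used, also held cells that met the endothelial and cycling limits. There were 56 and 39 of them in control and RA callus at 4 dpf and 14 and 10 at 7 dpf, 119 in all beside the 200 cycling cells kept. Of the 119, 82 exceeded 50000 UMIs and 112 exceeded 7000 genes.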

How the results depend on the processing

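The RA share at 7 dpf was below that of control in every setting (ratio 0.291 to 0.736), whereas at 4 dpf the ratio ran from 0.871 to 2.19. Thinned to 4000 UMIs, the cycling shares were 1.58%, 2.75%, 3.46% and 0.966% in control_4d, control_7d, RA_4d and RA_7d, with ratios of 2.19 for RA to control at 4 dpf and 1.74 for 7 to 4 dpf in control. Thinned to 10000 UMIs, control_4d was at 4.57% and RA_4d at 7.08%, and 7 to 4 dpf in control was 1.45. With 1 UMI of either *Mki67* or *Top2a*, the shares were 36.0%, 25.8%, 31.4% and 19.0%, with ratios of 0.736 for RA to control at 7 dpf and 0.605 for 7 to 4 dpf in RA. The stricter limits gave 4.74%, 5.604% and 7.14% in control_4d, control_7d and RA_4d. Control_4d and RA_4d were at 14.4% and 16.5% with the looser cell filter and at 14.8% and 16.7% without upper limits, where 7 to 4 dpf in control was 0.580 and 0.583. The ratio of 7 to 4 dpf in control thus lay on either side of 1. Of genes tested, 1133 were higher and 745 lower without venular cells, where fewer cells and genes entered, and 1553 to 1744 and 1313 to 1484 with a library left out. Other settings, DESeq2 (1716 and 1411) among them, stayed within 1.5 times the reported counts. Among genes named for the size of their fold change, 9 to 14 kept their direction but lost their call with a library left out. Without venular cells 19 did so (*Tek*, *Esm1*, *Vegfb*, *Dll1*, *Bmp4*, *Mgp* and *Pfkfb3* among them). With depth-nearest cells 12 did, without the block 14 and with DESeq2 11. Genes named for their role alone were not counted. The log2 fold change turned for *Flt4* without venular cells (-0.10) and for *Hbb-bt* (0.43) and *Hbb-bs* (0.16) with depth-nearest cells. Without *Prox1*-positive cells, 97 genes were at least 1 for RA to control at 4 dpf, and *Isg15* turned to -0.13 at 4 dpf and -0.43 at 7 dpf. A pseudocount of 1 CPM gave more genes past the fold: 352 higher and 118 lower for RA to control at 4 dpf, 127 and 233 at 7 dpf, 360 and 98 for time in control, and 200 and 221 in RA. The cause of these changes was not tested. *Dpt* could not be fitted with mesenchymal-high cells left out. The class comparison was paired by library, and without that block 1996 genes were higher and 1523 lower. Conditions could not be paired, with 1 library each. Depth limits the RA_7d levels most, at 30 cells and 734488 UMIs.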
